A study of Arabidopsis thaliana with 15 samples.

Results

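ANAC046-SRDX plants, called SRDX here, were compared with wild type (WT) after 5 days of darkness (5 DAD), on 6 of the 15 arrays of the series. The members were chosen by their labels, as all arrays of these genotypes at that time. Both genotypes are *Arabidopsis thaliana* of the Columbia accession Col-0, whose 3 WT arrays carry no transgene. The 3 SRDX arrays carry 35S:ANAC046-SRDX:NOS, in which the constitutive 35S promoter drives the transcription factor ANAC046 fused to the repression domain SRDX. Per the methods, each SRDX array came from its own transgenic line and WT was sampled in biological replicates, so that line 1, 2 and 3 below are also single arrays. The labels describe seedlings on agar wrapped in foil, whereas the methods describe leaves. The methods also give an age at which plants were moved to darkness. Whether that age holds for arrays labelled as seedlings could not be settled from these sources. A knockout of *ANAC046* (KO, genotype anac046, 3 arrays at 5 DAD) served for estimating the spread and for a direct comparison with SRDX.

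NAC proteins are plant transcription factors, and several of them drive the ageing of leaves. During leaf senescence, chlorophyll (Chl) is taken apart by a chain of enzymes, chloroplast proteins are degraded and nitrogen is exported to growing organs. Darkness sets off a similar programme in detached or shaded leaves, together with the use of fatty acids, amino acids and autophagy as sources of energy. SRDX is a short peptide modelled on the repression motif of SUPERMAN, a zinc finger protein of the flower, and fusing it to an activator usually turns that factor into a repressor of its targets.

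RNA was hybridised to one-color Agilent arrays. Values are log2 signals relative to the median of the array, and a log2 difference of 1 is a 2-fold difference in signal. Probes well above background made up 76.3% to 80.9% of spots on the WT arrays, 77.5% and 77.6% for lines 1 and 2 and 68.4% for line 3. The 3 WT arrays shared a slide, lines 1 and 2 shared another, and line 3 lay on a slide with the 3 KO arrays, so that genotype and slide cannot be told apart between SRDX and WT. The number of arrays limits the precision, and p-values rest on the spread among 3 arrays per group. In whole tissue, fewer cells of a type and less RNA per cell cannot be told apart.

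The targeted gene was measured first. The *ANAC046* probe gave log2 signals of 5.09, 5.33 and 5.21 in WT, 6.27, 6.40 and 6.27 in SRDX lines 1 to 3, and from -4.72 to -4.52 in KO, where it was not well above background. All 3 lines lay above all WT arrays, by 1.1 ± 0.14 (SE) on the log2 scale (limma, adjusted p = 0.0142). Which part of this signal came from the transgene was not tested. The probe of *SUP*, the SUPERMAN gene, showed the largest difference of all. It was not well above background on any WT array (-5.20, -4.88 and -5.26) and reached 5.79, 5.77 and 6.01 in the 3 lines, which is at least 1170-fold higher (adjusted p = 9.68e-09). *SUP* entered the test through the SRDX arrays alone, so that its p-value is no separate support. A second, dimmer *SUP* probe gave -3.54, -3.34 and -4.27 in SRDX and -3.72, -4.14 and -2.96 in WT, and these groups overlapped. Whether the bright probe read the endogenous gene or the transgene was not tested.

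Across all genes, SRDX differed widely from WT. Of 25193 genes tested, 2919 (11.6%) were higher and 2201 (8.74%) lower in SRDX at an adjusted p under 0.15, together 5120 (20.3%). Without adjustment, 6434 genes had a p under 0.05. Among called genes, 864 rose by more than 1 on the log2 scale and 708 fell by more than 1, while 77 and 117 passed a difference of 2. The median difference over all genes was -0.04. All 3 lines lay above all WT arrays for 4418 genes (17.5%) and below them for 3818 (15.2%), together 8236 (32.7%). These counts rested on single arrays, since leaving out WT replicate 2 left 651 higher and 332 lower, and leaving out line 2 gave 5000 and 4601.

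The 3 lines agreed in the genes called and differed in the size of their departure. Among the 5120 called genes, 96.8% had all lines beyond all WT arrays on the called side, 2830 above and 2128 below, and the call itself favours such genes. The median departure from the WT mean of genes called higher was 0.67 in line 1, 0.65 in line 2 and 1.01 in line 3, and that of genes called lower was -0.68, -0.65 and -1.08. Line 3, which was on its own slide among the SRDX arrays and had the lowest share of spots above background, also had the most genes more than 1 above the WT mean, 2652 against 995 in line 1 and 1304 in line 2. The part of the slide and of the share of bright spots in this was not tested.

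**Figure D1:**
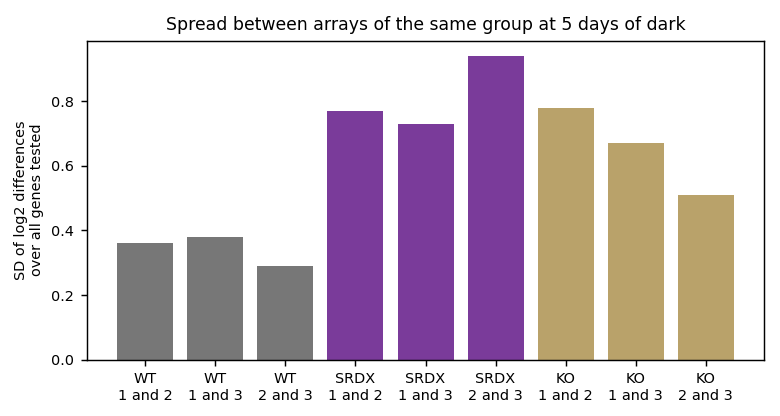
Standard deviation (SD) of the log2 differences between each pair of arrays of 1 group at 5 DAD, over all genes tested. The WT pairs lie at 0.29 to 0.38, the SRDX pairs at 0.73 to 0.94 and the KO pairs at 0.51 to 0.78.

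The lines differed more among themselves than the WT arrays did. Differences between 2 SRDX lines had an SD of 0.77 for lines 1 and 2, 0.73 for lines 1 and 3 and 0.94 for lines 2 and 3, whereas pairs of WT arrays stood at 0.29 to 0.38 and pairs of KO arrays at 0.51 to 0.78, as the plot of array pairs shows. Lines 2 and 3 differed by more than 1 at 5891 genes, lines 1 and 2 at 4071 and lines 1 and 3 at 3431. Among called genes, 257, 311 and 327 departed by more than 1 from the mean of the other lines in lines 1, 2 and 3. Line 1 departed most at AT3G16370, with values of -2.47, -2.07 and -2.63 in WT and -2.52, 0.80 and 1.56 in lines 1 to 3, so that line 1 stayed within the WT range. Line 1 likewise stayed within the WT range at *RLP40*, a receptor-like protein, with 1.05 against -2.39 and -1.21 in lines 2 and 3 and 0.81 to 2.32 in WT. Line 2 stood out at *AGP14*, an arabinogalactan protein, with -4.74 against -0.54 and -1.98 in the other lines. It also stayed close to WT at *NIA1*, a nitrate reductase, with 2.0 against 0.15 and -1.67, where WT spanned 2.01 to 2.65. *LAC7*, a laccase, and AT1G03020 were the other genes at which line 2 departed most, and AT5G57760 was another for line 1. Line 3 departed most at AT4G12510, *PRE1*, *CYP83A1* and *MAPKKK17*, each in the direction of the other lines and further.

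The 12 largest increases by the rule for naming genes included, after *SUP*, an expansin, a gibberellin-responsive gene, bHLH proteins and auxin-responsive genes. *EXPA16*, an expansin that loosens cell walls, had -3.90, -4.38 and -4.74 in WT and -2.11, -0.45 and 0.26 in SRDX. It rose by 3.57 ± 0.55 (adjusted p = 0.0183). Both *EXPA16* and AT4G12510, given below, were well above background on only 1 WT array. *GASA6*, a gibberellin-responsive peptide, had 1.73, 1.64 and 1.5 in WT and 3.97, 4.17 and 6.17 in SRDX, where line 3 was far above the other lines. Of the bHLH proteins that promote cell elongation, *KDR* (PRE6) rose by 2.81. *PRE1* was not well above background on any WT array and was at least 6.98-fold higher (adjusted p = 0.127). It did not enter the test through WT, so that this p-value is no separate support. The small auxin-upregulated RNAs SAUR64 (AT1G29450) and SAUR16 (AT4G38860) rose by 3.04 and 3.01. AT1G29660 and AT1G29670, whose locus numbers are adjacent, rose by 2.98 and 2.86, and AT4G12510, AT5G57760 and AT1G49200 by 3.63, 2.99 and 2.97. In all of them every line lay above every WT array, which the rule required, and at AT5G57760 line 1 (-0.60) lay much nearer to WT (-1.92 to -1.19) than lines 2 and 3 (both 2.62).

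The 12 largest decreases included *CEP1* and *RNS3*, both of the list of developmental cell death. *CEP1*, a cysteine endopeptidase of dying plant cells, had -0.35, 1.12 and 0.22 in WT and -3.23, -4.70 and -5.10 in SRDX. It fell by 4.68 on the log2 scale, with an SE of 0.64 (adjusted p = 0.0153). *CEP1* was well above background in only 1 of 3 lines and did not enter the test through SRDX. *RNS3*, a ribonuclease, had 2.0, 2.38 and 2.08 in WT and -0.16, -2.18 and -1.45 in SRDX, so that the groups did not overlap. *MAPKKK17*, a kinase of the abscisic acid response, had 6.16, 5.73 and 5.54 in WT and 2.60, 3.11 and 0.04 in SRDX. *AUR2*, an Aurora kinase of cell division, fell by 3.72 and, like AT1G30974 below, was well above background in only 1 of 3 lines. *SRO3*, of the RCD1 family, was not well above background in any line and was at least 4.47-fold lower. AT5G45320 was at least 10.9-fold lower on the same ground. The other genes were the adjacent loci AT1G30972 and AT1G30974, which fell by 4.48 and 4.11, the adjacent loci AT4G34320 and AT4G34330, which fell by 3.83 and 3.58, and AT4G18425 and AT2G40500, which fell by 4.28 and 3.89.

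**Figure D2:**
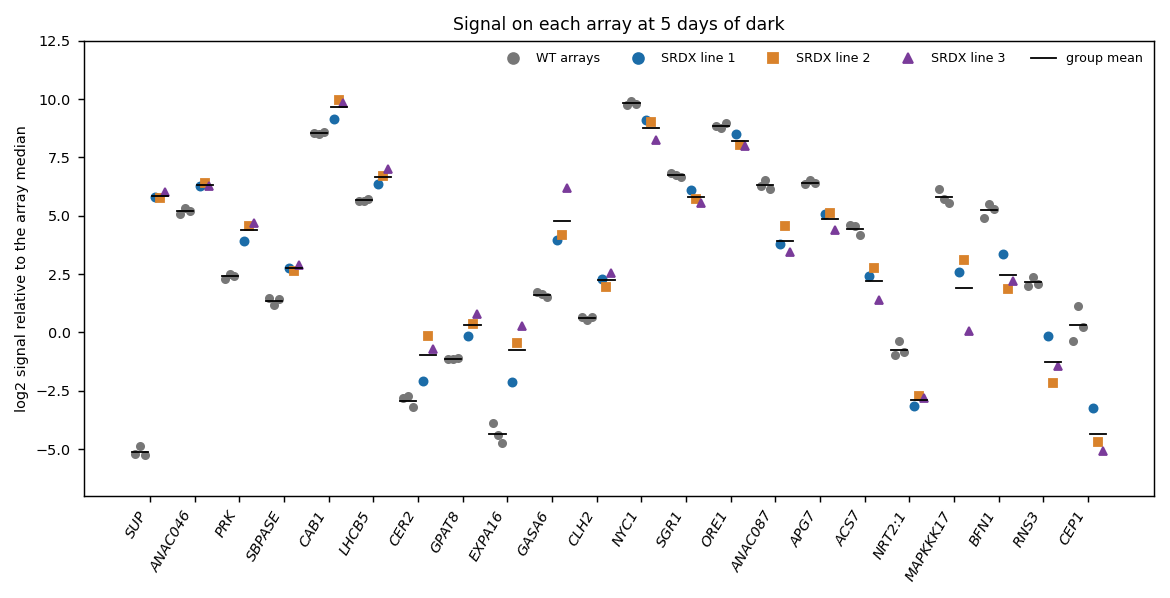
Log2 signal relative to the array median (y axis) of 22 genes on each WT array (grey) and in SRDX line 1 (circle), line 2 (square) and line 3 (triangle), with group means as bars. *SUP* is near -5 in WT and near 6 in SRDX. The genes were chosen with earlier results of these data known, so that the lack of overlap between the genotypes in all of them is no result. Over all genes tested, 8236 (32.7%) did not overlap.

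The genes of photosynthesis were higher in SRDX. Of 26 tested genes of the Calvin cycle and photorespiration, 17 rose and none fell, with a median difference of 0.74 over the list. *PRK*, the phosphoribulokinase that makes the acceptor of CO2, had 2.27, 2.49 and 2.43 in WT and 3.91, 4.55 and 4.70 in SRDX. It rose by 1.99 ± 0.25 (adjusted p = 0.0138). *SBPASE*, sedoheptulose bisphosphatase, had 1.48, 1.19 and 1.41 in WT and 2.77, 2.64 and 2.90 in SRDX and rose by 1.41 ± 0.16. Both genes kept the lines clear of WT. Of 21 genes of the light-harvesting antenna, which bind Chl around the photosystems, 15 rose and none fell, with a median of 0.83. *LHB1B1* had 6.77, 7.0 and 6.90 in WT and 7.28, 9.03 and 8.22 in SRDX (adjusted p = 0.0797), and *LHCB2.3* rose by 1.22 ± 0.23. Of 35 genes of the photosystems and electron transport, 17 rose and none fell, with a median of 0.58. *NPQ4*, the photosystem II subunit PsbS that sheds excess light, rose by 1.27 ± 0.20, and *FED A*, a leaf ferredoxin, by 1.16 ± 0.23. Members of the RBCS and CAB families are near-identical in sequence, and their probes may share signal. Without WT replicate 2, 8 Calvin cycle, 6 antenna and 7 photosystem genes were called higher, and the medians were 0.71, 0.79 and 0.55.

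The 6 leaf markers had summed linear signals of 608 to 649 in WT and of 860, 1510 and 1360 in lines 1 to 3. *CAB1*, an antenna protein, *CA1*, a carbonic anhydrase, and *RBCS1A*, a Rubisco small subunit, rose by 1.11, 0.99 and 0.74, and *SUC2*, *RCA* and *MYB60* did not pass the test. *CAB1* and *RBCS1A* are themselves genes of photosynthesis and the brightest of the 6. *RBCS1A* and *RCA* are also members of the Calvin cycle list, so that the sum partly repeats the result above. Summed over 15 root markers the signal was 2.83 to 3.63 in WT and 2.75 to 2.95 in SRDX. Of 11 tested root markers, 1 was higher, *CASP2*, and none lower, a share of 9.09% against 11.6% higher over all genes. Of the 5 xylem markers, *IRX3* and *IRX1* were not well above background in either genotype. *XCP1*, a cysteine protease of forming vessels, had -1.61, -1.47 and -1.03 in WT and -1.31, -0.85 and -4.25 in SRDX, so that line 3 alone was low. The xylem sum was 0.521 to 0.685 in WT and 0.595, 0.766 and 0.352 in the lines. Of the flower and seed markers, *PI*, a floral homeotic gene, had 4.54, 5.00 and 4.69 in WT and 3.81, 2.61 and 2.63 in SRDX and fell by 1.73 (adjusted p = 0.0241). The sum over the 9 flower and seed markers was 24.2 to 33.0 in WT and 15, 7.09 and 6.80 in the lines. *PI* was by far the brightest of the 9 and made up most of this sum on every array. The other 3 of the 4 tested members were not called, and *AG*, *AP3* and *SEP3* overlapped between the genotypes. The part of any change in tissue makeup in these results was not tested.

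**Figure D3:**
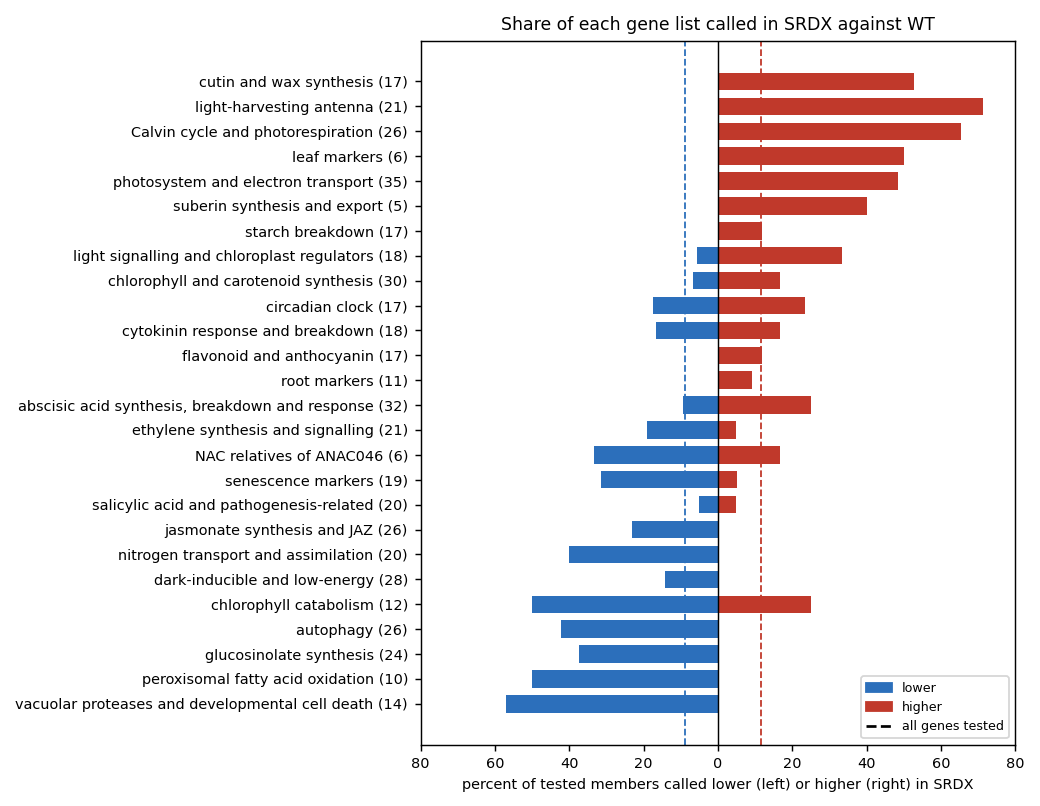
Percent of the tested members of each gene list (numbers tested in brackets) called lower (left, blue) or higher (right, red) in SRDX against WT at an adjusted p under 0.15. The dashed lines give the shares over all genes tested, 8.74% lower and 11.6% higher; the light-harvesting antenna reaches 71.4% higher and the vacuolar proteases 57.1% lower.

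Pigment synthesis gave calls in both directions. Of 30 genes of Chl and carotenoid synthesis, 5 rose (16.7%) and 2 fell (6.67%), with a median of 0.17. Over the left-out arrays these counts ran from 1 to 7 higher and from 1 to 9 lower. *CRD1*, a cyclase that forms the fifth ring of Chl, rose by 1.02, and *CHLP* (AT1G74470), geranylgeranyl reductase, by 0.72. *HEMB1*, of early tetrapyrrole synthesis, and *BCH1* (BETA-OHASE 1), a carotene hydroxylase, fell by 0.43 and 0.87. Of 18 light signalling genes and chloroplast regulators, 6 rose and 1 fell, but 0 were called higher without WT replicate 2 and 3 without line 3. The GATA factors *CGA1* and *GNC*, which promote greening, rose by 1.3 and 0.83. The paralogs that build chloroplasts parted, as *GLK1* (GPRI1) fell by 0.72 (2.49, 2.69 and 2.44 in SRDX against 3.07 to 3.36 in WT) and *GLK2*, chosen after its values were seen, rose by 0.67. Among 17 clock genes, 4 rose (23.5%) and 3 fell (17.6%), against 11.6% and 8.74% over all genes. These counts ran from 2 to 5 and from 0 to 5 over the left-out arrays. *LUX* (PCL1) and *ELF4* rose by 1.09 and 0.97, and *CCA1* and *LHY* fell by 0.65 and 0.76. *PRR9* rose by 0.6 (limma, adjusted p = 0.145), and *TOC1*, *GI* and *ELF3* differed by 0.54, 0.5 and 0.18 and did not pass.

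The 12 genes of Chl catabolism divided, with 6 lower, 3 higher and 3 not past the test, and a list median of -0.50. The Chl *b* reductase *NYC1* had 9.76, 9.93 and 9.78 in WT and 9.11, 9.01 and 8.23 in SRDX, and fell by 1.04 (adjusted p = 0.0637). *SGR1* (NYE1), the magnesium dechelatase, had 6.81, 6.74 and 6.68 in WT and 6.12, 5.72 and 5.53 in SRDX, and fell by 0.95 (adjusted p = 0.0274). The pheophytinase *PPH* fell by 1.1, the pheophorbide oxygenase *PAO* (ACD1) by 0.89, *SGR2* (AT4G11910) by 0.60 and the methylesterase *MES16* by 0.40. In each of these 6 genes all lines lay below WT. The 3 that rose were the chlorophyllase *CLH2* by 1.64, the hydroxymethyl Chl reductase *HCAR* by 1.08 and the red Chl catabolite reductase *RCCR* (ACD2) by 0.68. *CLH1* differed by -0.83 (adjusted p = 0.433), *NOL* by -0.31 and *CYP89A9* by -0.26, none past the test. Without WT replicate 2, 1 gene of the list was called lower and 2 higher, and the median was -0.47.

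The senescence markers were called lower more often than higher, 6 against 1 of 19, with a median of -0.27. *PPDK*, an enzyme that mobilises nitrogen, and *ERD1*, a subunit of the chloroplast protease Clp, fell by 0.84 and 0.75, with values in line 2 (10.06 and 9.40) near those of WT. The F-box gene *MAX2* (ORE9) rose by 0.54. *SAG12*, a cysteine protease, had -0.63, 2.09 and 0.37 in WT and 0.27, -0.98 and -2.22 in SRDX, and these ranges overlapped (adjusted p = 0.327). *SAG13* differed by -0.55 (adjusted p = 0.17). None of the 7 calls of this list remained without WT replicate 2, nor without line 3.

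Of the NAC genes closest to *ANAC046*, *ANAC087* fell most. It had 6.27, 6.54 and 6.15 in WT and 3.80, 4.56 and 3.44 in SRDX, a fall of 2.38 on the log2 scale with an SE of 0.29 (adjusted p = 0.0138). *ORE1* (NAC6), a central activator of senescence, had 8.85, 8.76 and 8.98 in WT and 8.51, 8.05 and 8.00 in SRDX and fell by 0.68. *ANAC079* (NAC080), *ORS1* (NAC3, AT3G29035) and *ANAC100* (NAC100) differed by 0.22, -0.23 and -0.24 and did not pass. Other senescence NACs were *ANAC055* (NAC3, AT3G15500), which fell by 1.5, *ANAC019* (NAC019), which fell by 0.97, and *NAP*, which fell by 0.52. *ATAF1*, *RD26* and *JUB1* (NAC042) differed by -0.56, -0.46 and -0.40 and did not pass. Over all 52 tested genes whose symbols begin with NAC, a family chosen after its values were seen, 14 were lower and 3 higher (26.9% and 5.77%).

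In the lists of vacuolar proteases, autophagy, fatty acid oxidation and dark-inducible genes, no gene was called higher. Other lists of breakdown did hold such genes, 3 of 12 in Chl catabolism (6 lower) and 2 of 17 in starch breakdown (0 lower). Of 14 genes of vacuolar proteases and developmental cell death, 8 fell and none rose, with a median of -0.96, and *CEP1* and *RNS3* fell most. *BFN1*, a nuclease of dying cells, chosen after its values were seen, had 4.90, 5.50 and 5.28 in WT and 3.38, 1.88 and 2.19 in SRDX. Of 26 autophagy genes, 11 fell and none rose, with a median of -0.57. *APG7*, the activating enzyme of both conjugation systems, had 6.34, 6.54 and 6.39 in WT and 5.09, 5.12 and 4.40 in SRDX and fell by 1.55 (adjusted p = 0.0177). *ATG8H*, of the ubiquitin-like proteins that coat the autophagosome, fell by 1.34. Both genes had every line below every WT array. Of 10 genes of peroxisomal fatty acid oxidation, 5 fell and none rose, with a median of -0.81. *MFP2*, a multifunctional protein of the cycle, fell by 1.37 and the acyl-CoA oxidase *ACX2* by 0.98; at *MFP2*, line 2 (6.29) lay just below the WT arrays (6.44 to 6.77) and lines 1 and 3 (5.00 and 4.47) far below. Of 28 dark-inducible and low-energy genes, 4 fell (14.3%, against 8.74% over all genes) and none rose. They were led by *DIN9*, a mannose phosphate isomerase, and *D2HGDH*, a hydroxyglutarate dehydrogenase, which fell by 0.80 and 0.65. The median of that list was -0.53 in line 1, -0.10 in line 2 and -0.77 in line 3, and its 4 calls became 0 without WT replicate 2 and 1 without line 3. Without WT replicate 2, the called genes were 3 in the protease list, 3 in autophagy and none in fatty acid oxidation, with medians of -0.96, -0.52 and -0.76.

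Of 20 genes of nitrogen transport and assimilation, 8 fell and none rose, with a median of -0.43 and line medians of -0.60, -0.10 and -0.70. The calls were 2 without WT replicate 2 and 3 without line 3, with medians of -0.43 and -0.31. *NRT2:1*, a high-affinity nitrate transporter, had -0.99, -0.38 and -0.84 in WT and -3.17, -2.71 and -2.80 in SRDX, and fell by 2.16 on the log2 scale with an SE of 0.23 (adjusted p = 0.0103). Its 3 lines were close together and clear of WT. *NIA1* fell by 2.26, with line 2 just below the WT range as given above. Of 24 genes of glucosinolate synthesis, the sulfur-containing defence compounds of the cabbage order, 9 fell and none rose, with a median of -0.61. *CYP79F1*, which starts the methionine-derived branch, had 0.07, -0.43 and 0.56 in WT and -2.98, -4.07 and -2.89 in SRDX and fell by 3.38 (adjusted p = 0.0721). *CYP83A1*, of the following step, had 2.73, 2.17 and 3.2 in WT and 0.25, 0.84 and -2.52 in SRDX and fell by 3.18 (adjusted p = 0.129). The 9 calls fell to 0 without WT replicate 2 and to 1 without line 3, with medians of -0.65 and -0.48.

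Genes of the cuticle were higher. Of 17 genes of cutin and wax synthesis tested, 9 rose and none fell, with a median of 0.87, and 4 others on the array were too dim to test. The calls were 4 without WT replicate 2 and 5 without line 3, with medians of 0.83 and 0.81. *CER2*, of very-long-chain wax synthesis, had -2.83, -2.71 and -3.21 in WT and -2.1, -0.16 and -0.71 in SRDX and rose by 1.93 ± 0.43 (adjusted p = 0.0399). *GPAT8*, an acyltransferase of cutin, had -1.16, -1.13 and -1.08 in WT and -0.15, 0.35 and 0.78 in SRDX and rose by 1.45 ± 0.23. Line 1 was the lowest of the lines in both and still above WT. Only 5 of 16 suberin genes could be tested, of which *FAR1*, a fatty acyl reductase, rose by 1.97 and *KCS20*, an elongase, by 0.47.

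In the jasmonate list, 6 of 26 fell and none rose (median -0.33), and the lipoxygenases *LOX2* and *LOX4* fell by 1.98 and 0.94. The list medians were 0.10 in line 1, -0.75 in line 2 and -0.43 in line 3. Over the left-out arrays, 1 to 12 genes were called lower and the median ran from -0.67 to -0.18. *LOX2* had 9.40, 8.08 and 9.15 in WT and 6.98, 7.44 and 6.26 in SRDX. In the ethylene list, 4 of 21 fell (19%, against 8.74% over all genes). Of these, *ACS7*, which makes the ethylene precursor, had 4.6, 4.54 and 4.19 in WT and 2.43, 2.74 and 1.40 in SRDX. *ACS7* fell by 2.25 (limma, adjusted p = 0.02). A further synthase, *ACS8*, fell by 1.49, and the receptor *ERS1* rose by 0.53. In the abscisic acid list, 8 of 32 rose (25%) and 3 fell (9.38%, near the 8.74% over all genes). The cold- and stress-responsive genes *KIN2* and *KIN1*, which are close copies, rose by 1.74 and 1.69, while *MAPKKK17* and *ABA3*, a molybdenum cofactor sulfurase of hormone synthesis, fell. Over the left-out arrays, 3 to 9 genes of this list were called higher and 0 to 8 lower. In the cytokinin list 3 of 18 rose and 3 fell, 16.7% each, against 11.6% higher and 8.74% lower over all genes. Leaving out single arrays gave 0 to 7 higher and 1 to 5 lower. The response regulators *ARR6* and *ARR9* rose by 1.44 and 1.35, and the cytokinin oxidases *CKX3* and *CKX5*, which break the hormone down, fell by 0.95 and 0.90. At *ARR6*, line 2 (1.01) lay just above WT (0.62 to 0.93), and the call was lost under 11 of 21 alternatives. Other response regulators did not pass, *ARR7*, *ARR5* and *ARR8* at 0.9, 0.85 and 0.5, and *ARR17* and *ARR16* at -0.46 and -0.49. In the salicylic acid list, 1 of 20 rose (*PR5*, a pathogenesis-related protein, by 1.18) and 1 fell (*SARD1*, a regulator of the hormone's synthesis, by 0.89), shares below those over all genes. In flavonoid synthesis 2 of 17 rose, *TT5* by 1.05 and *TT7* by 0.84, and in starch breakdown 2 of 17, *DPE1* by 1.09 and *BAM2* by 0.73, with none lower in either list. Both shares are 11.8%, near the 11.6% over all genes.

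**Figure D4:**
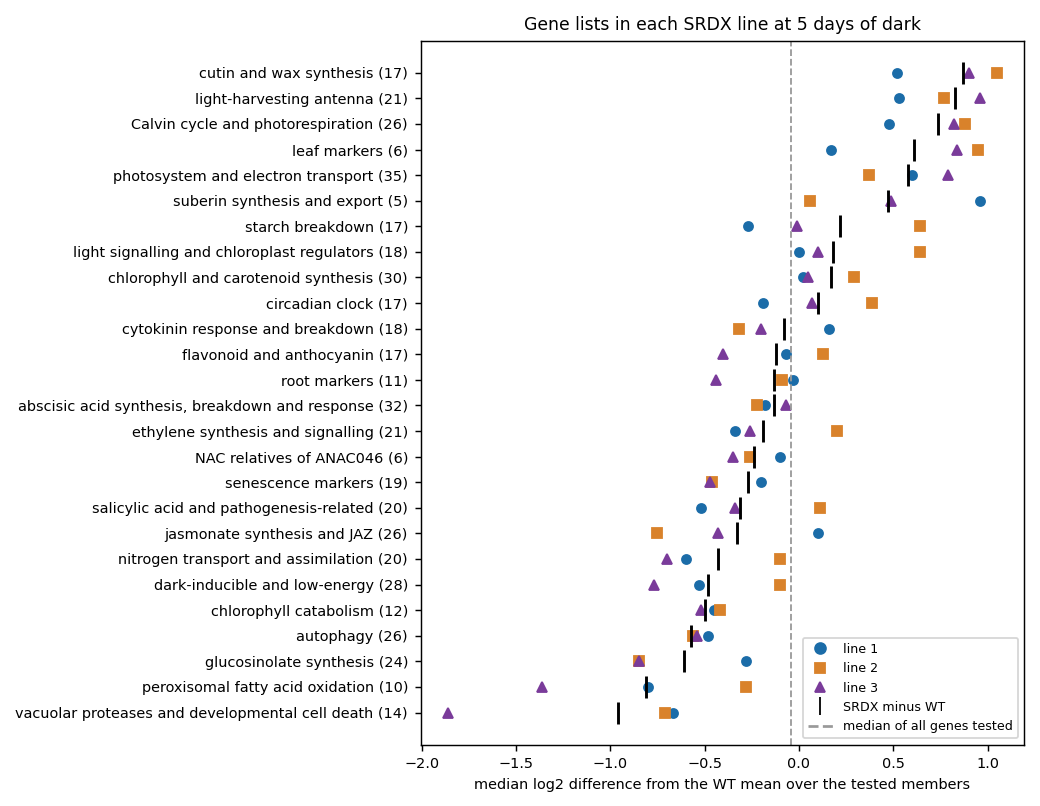
Median log2 difference from the WT mean over the tested members of each list (numbers in brackets) in line 1 (circle), line 2 (square) and line 3 (triangle), with the median of SRDX minus WT as a bar. The dashed line is the median of all genes tested (-0.04); starch breakdown spans -0.27 in line 1 to 0.64 in line 2, whereas Chl catabolism spans only -0.52 to -0.42.

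Set side by side, the line medians were close for Chl catabolism (-0.45, -0.42 and -0.52 in lines 1, 2 and 3) and autophagy (-0.48, -0.56 and -0.54). Close medians do not mean that the lines agreed at each member. They were close at *MES16* (-0.47, -0.38 and -0.35) and *ATG3* (-0.24, -0.17 and -0.29). They were far apart at *PPH* (-1.24, -0.45 and -1.59) and *NBR1* (-1.26, 0 and -1.46). The line medians were further apart for starch breakdown (-0.27, 0.64 and -0.01), fatty acid oxidation (-0.80, -0.28 and -1.36) and the vacuolar proteases (-0.67, -0.71 and -1.86). In the antenna they were 0.53, 0.77 and 0.96, and in the Calvin cycle list 0.48, 0.88 and 0.82. The lines share the WT arrays, so these values carry the same WT error.

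Families were also formed from all gene symbols by the letters before the first digit, with at least 10 tested members. The highest shares called higher were in CRF (cytokinin response factors, 6 of 10), KCS (elongases of very-long-chain fatty acids, 8 of 14), BBX (B-box zinc finger proteins, 8 of 17), IAA (auxin-induced repressors, 8 of 17), PTAC (plastid transcription complex, 6 of 13), PIP (mostly plasma membrane aquaporins, 7 of 16), RPL (ribosomal proteins of the large subunit, plastid and cytosolic, 9 of 22) and CRR (chlororespiratory reduction, 4 of 10). SAUR (4 of 10, with 1 lower) and TCP (6 of 15) had the same 40% as CRR, which came first by the alphabet. Of the 8 families listed, only CRF and PIP had a member called lower, *CRF7* and the lipid kinase *PIP5K2*. *IAA2* had 5.39, 5.24 and 5.20 in WT and 6.2, 6.36 and 6.84 in SRDX and rose by 1.19 ± 0.19 (adjusted p = 0.0195). The aquaporin *PIP1;5* rose by 1.23 and *PIP3* by 1.1, *CRF4* by 1.37 and *CRF1* by 1.07, *KCS8* by 1.59 and *KCS3* by 1.09, and *RPL4* by 0.98 and *RPL12-C* by 0.87. *CRR7* and *CRR42*, needed for the chloroplast NDH complex, rose by 2.1 and 1.73. In *KCS8*, line 1 (-0.09) lay within the WT range (-0.50 to -0.07), with lines 2 and 3 at 2.16 and 2.02. In *CRR42*, line 2 (-2.08) lay within the WT range (-2.62 to -2.07), with lines 1 and 3 at -0.12 and 0.24. *BBX16*, *BBX27*, *PTAC7* and *PTAC5* rose by 1.15, 0.98, 0.84 and 0.79, and *IAA29*, not well above background on any WT array, was at least 2.45-fold higher.

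**Figure D5:**
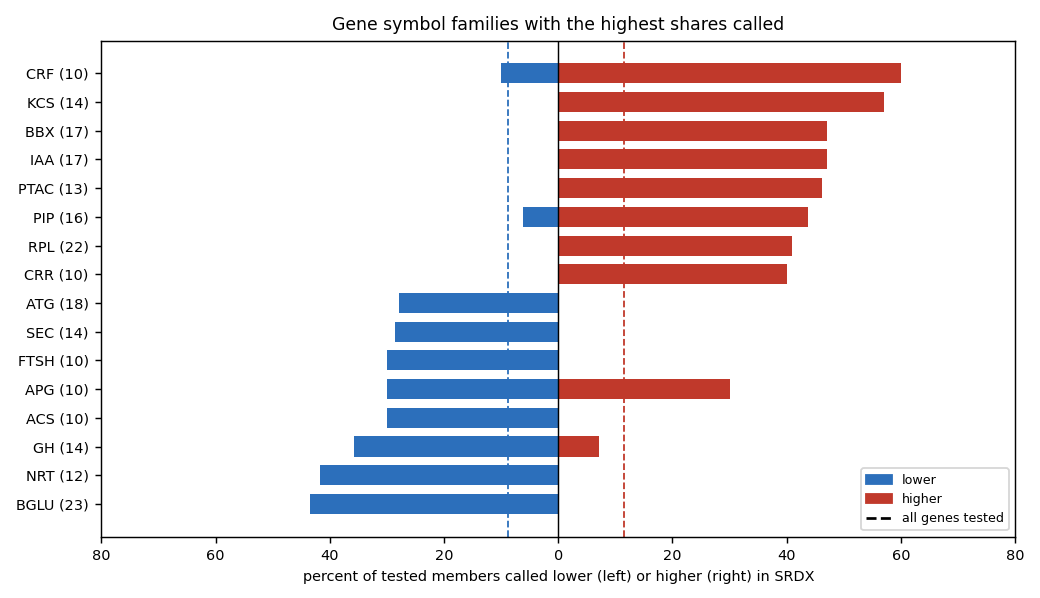
Percent of tested members (numbers in brackets) called lower (left, blue) or higher (right, red) in SRDX, for the 8 symbol families with the highest share higher and the 8 with the highest share lower. The dashed lines give the shares over all genes tested; CRF reaches 60% higher and BGLU 43.5% lower.

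The highest shares called lower were in BGLU (beta-glucosidases, 10 of 23), NRT (nitrate transporters, 5 of 12), GH (5 of 14), ACS (3 of 10), APG (3 of 10), FTSH (plastid and mitochondrial proteases, 3 of 10), SEC (mostly secretion proteins, 4 of 14) and ATG (autophagy, 5 of 18). *BGLU15* had 1.76, 1.73 and 1.43 in WT and -0.02, 0.03 and -1.72 in SRDX and fell by 2.21 (adjusted p = 0.0967), and *BGLU18*, which can release abscisic acid from its conjugate, fell by 1.86. *NRT2.6* fell by 1.94, *FTSH6* by 2.12, *ftsh7* by 1.02, *SEC1B* by 0.89 and *SEC5B* by 0.86. In *ftsh7*, line 2 (2.56) lay within the WT range (2.52 to 2.91), as it did in *ftsh10*, *SEC3A* and *SEC3B*, also called lower. The medians in lines 1, 2 and 3 were -0.98, 0.04 and -1 in FTSH, and -0.72, -0.07 and -0.7 in SEC. They were -0.37, 0.07 and -1.16 in NRT, and -0.11, 0.06 and -0.72 in ACS. In BGLU, GH, APG and ATG every line had a negative median. Shared letters do not always mean a shared function. GH joins *GH3.17*, which conjugates auxin and fell by 1.41, with the glycosyl hydrolases *GH9B17*, not well above background in any line and at least 3.7-fold lower, and *GH9B1*, which rose by 1.28. APG joins autophagy genes such as *APG9*, which fell by 1.21, with albino and pale green genes such as *APG10* and *APG3*, which rose by 0.85 and 0.67. The ATG and APG families and the autophagy list, and the KCS family and the cuticle lists, share genes.

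SRDX was last compared with KO within the same fit. The test passed at 59 of 25193 genes (0.234%). Of the 24 genes with the largest changes against WT, *SUP* was the only one past this test, where the 3 KO arrays each gave -5.40 (adjusted p = 3.87e-09). *PRK* and *CEP1* differed between SRDX and KO with adjusted p-values of 0.496 and 0.256, which does not show that the genotypes were alike. *SBPASE* was 0.94 higher in SRDX than in KO (adjusted p = 0.148).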

How the data were processed

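The authors deposited spot intensities from Agilent Feature Extraction, background-subtracted and not scaled between arrays. The file headers give version 11.5.1.1 and the submitters' processing notes 9.1.3.1. The authors also deposited a normalized table, read here as natural log values since its base is not stated, and used only as an alternative. Its values rose by 0.66 to 0.736 per unit of the natural log of the scanner intensities.

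Following the methods, spots with outlier flags were removed and signals were divided by the median of passing spots. After averaging repeated spots, log2 signals of 15 arrays were quantile normalized. Accessions matched 34348 of 43603 probes (78.8%) to 25410 loci of a RefSeq table (TAIR10.1), used for names only, and the brightest probe stood for a gene. The test took the 25193 genes whose probe exceeded background clearly on all 3 arrays of WT, SRDX or KO at 5 DAD, fitted on these 9 arrays, and left out 9097 dimmer genes. limma 3.58.1 in R 4.3.3 (lmFit, eBayes) gave Benjamini-Hochberg adjusted p-values, with a limit of 0.15. Genes dim in a group entered the test through another group, in which they were brighter, so that their p-values are no separate support. Where no array of a group was well above background, only a bound on the fold is given, against the higher of the probe's signal and the lowest signal well above background on each array. The fit was tested on simulated data. Figures were drawn with matplotlib 3.10.9.

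The 28 lists held 562 entries, of which 14 were left out because the table did not pair name and locus. Lists are described by counts and medians, beside those of all genes tested. Named were the 12 largest increases and decreases with all lines beyond WT, up to 2 per list, family and direction, the 4 genes by which each line departs most, relatives of *ANAC046* and genes the paper names. Samples, lists and genes were chosen with earlier results of these data known. Alternatives covered scaling, background, filters, probes, arrays in the fit, limits, blocks and leaving out each array. Promoter motifs were not analysed here.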

Additional observations from a re-analysis of the deposited data

Results flagged for a closer look

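Outside the comparison, the bright *SUP* probe was well above background on 1 array at 50 days after sowing, that of line 1 of the plants overexpressing *ANAC046* without SRDX (OX), at a log2 signal of 1.23. OX lines 2 and 3 gave -5.40 and -5.39, and the 3 WT arrays of that age -5.38, -5.36 and -5.38. The *ANAC046* signal of OX line 1 was 2.64, against 8.93 and 8.99 in OX lines 2 and 3 and 0.42 to 0.77 in WT. The cause was not tested.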

How the results depend on the processing

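Counts of called genes moved with the limit and with single arrays, and directions seldom did. A limit of 0.05 gave 1019 genes higher and 570 lower, and Storey's q-values 4708 and 4278. Slide as a random block gave 2095 and 1433. This block cannot part slide from genotype, since the slide of the WT arrays held no SRDX array. Leaving out 1 array gave 651 to 5000 higher, 332 to 4601 lower, 98.9% to 100% of called genes with all remaining lines beyond WT, and 1 to 3 of the 24 largest changes past the test against KO (0 when probes had to be above background on all 6 arrays, which drops *SUP*). Each WT array lowered the counts when left out (to 877 and 556 without replicate 1, 651 and 332 without replicate 2, 1290 and 775 without replicate 3), as did line 3 (1152 and 795), whereas leaving out line 2 raised them (5000 and 4601). Of the calls without WT replicate 2, all 651 higher and 330 of 332 lower were among the main ones. No called gene was called in the opposite direction under any of the 21 alternatives run for all genes. Normexp, run on median spot signals, gave 3189 and 2639. One alternative was chosen after seeing the data for all genes, quantile normalization before log2 (2925 and 2214), and 1 for *SUP*, whose dimmer probe gave -0.11 (adjusted p = 0.879). *JUB1* (NAC042), not past the test, ranged from -0.96 without line 1 to 0.03 without line 2, and the suberin median turned to -0.04 with no filter on dim probes. Same-numbered WT and SRDX arrays did not deviate together (correlations -0.23, -0.07 and -0.01), which gave no sign that the numbers pair these samples. Same-numbered SRDX and KO arrays gave 0.2, 0.61 and -0.12, and what the 0.61 of number 2 reflects was not tested. With a replicate block, 3138 genes were higher and 2444 lower. Genes whose adjusted p was near 0.15, such as *AGP14* (0.145) and *PRE1* (0.127), lost their call under 13 and 10 of 20 alternatives.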
